A study of Mus musculus with 6 samples.

Results

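The genes described here belong to 4 families of extracellular proteolysis: the Adam sheddases, the secreted Adamts proteases with their Adamtsl relatives, the Mmp matrix metalloproteinases, and the Timp inhibitors. They were taken by symbol from a deposited table of RPKM, reads per kilobase of transcript scaled to the mapped reads of a library: Adam followed by a digit, Adamts, Mmp followed by a digit, and Timp1 to Timp4. Of 84 such symbols in the table, 22 held no value in any library, which left 62 members among 21456 symbols with values. Genes were tested where their RPKM averaged 1 or more across the 6 libraries, a condition met by 24 members and by 12532 genes in all. The libraries were made from cells of developing kidneys of CFW mice at E16.5, and the cells belong to the ureteric epithelium, the branching tree that forms the collecting ducts. The 3 tip libraries came from cells positive for both Wnt11RFP and Hoxb7GFP, and the 3 stalk libraries from cells with Hoxb7GFP but without Wnt11RFP. All cells thus carried the Hoxb7 reporter, and the groups were separated by a reporter of a single tip gene. The labels name no other allele or treatment, and do not say whether animals were pooled or whether libraries came from separate animals. The p-values therefore measure only the spread between these libraries, which may be technical.

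These proteases cut proteins at or outside the cell surface with a zinc ion in the active site. Adam proteins span the membrane and release the outer parts of receptors, growth factors and adhesion molecules. Adamts proteins are secreted and process proteoglycans, procollagens and microfibrils. Mmp proteins degrade collagens and other matrix proteins, and Timp proteins block their active sites. A growing epithelial branch remodels the basement membrane around it, and Mmp14, anchored in the cell membrane, activates the Mmp2 proenzyme through a complex that contains Timp2.

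Among the tested members, more were higher in tip than in stalk. With limma (Benjamini-Hochberg adjusted over all genes, threshold 0.05), 12 of the 24 tested members were higher in tip, 5 were higher in stalk and 7 did not pass. Of all genes tested, 26.1% were higher in tip, 22.5% were higher in stalk and 48.6% were called in either direction. The members' share toward tip (50%) lay above that background, and their share toward stalk (20.8%) lay near it. The minimum was a mean over both groups, so a gene could pass it through its higher group alone. Adamts18, Adamts20, Adamts7 and Adamtsl1, called toward tip, averaged under 1 RPKM in stalk. Mmp23, called toward stalk, averaged under 1 RPKM in tip. With no minimum, 13 of 62 members were higher in tip (15.2% of all genes) and 10 in stalk (13.3% of all genes). With the minimum, a called log2 difference of at least 1 was found for 9 members toward tip (8.24% of all genes). Toward stalk it was found for 3 (8.87% of all genes). The median log2 difference was 0.67 over the members and 0.045 over all genes. Every tip library lay above every stalk library for 13 members (31.3% of all genes), and the reverse held for 7 members (26.5% of all genes). All differences are tip minus stalk on the log2(RPKM + 1) scale, which understates the change of low genes, and levels are means ± SD over n = 3 libraries.

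By family the counts were small, and no difference between families was tested. Of 8 tested Adamts genes, 6 were higher in tip and 1 in stalk. Of 6 tested Mmp genes, 3 were higher in tip and 1 in stalk, while of 7 tested Adam genes, 1 was higher in tip and 3 in stalk. The Adamtsl gene tested and 1 of 2 tested Timp genes were higher in tip. The shares of all genes to set beside these counts are again 26.1% for tip and 22.5% for stalk, and 1 of 6 Mmp genes toward stalk or 1 of 7 Adam genes toward tip is not above them.

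**Figure D1:**
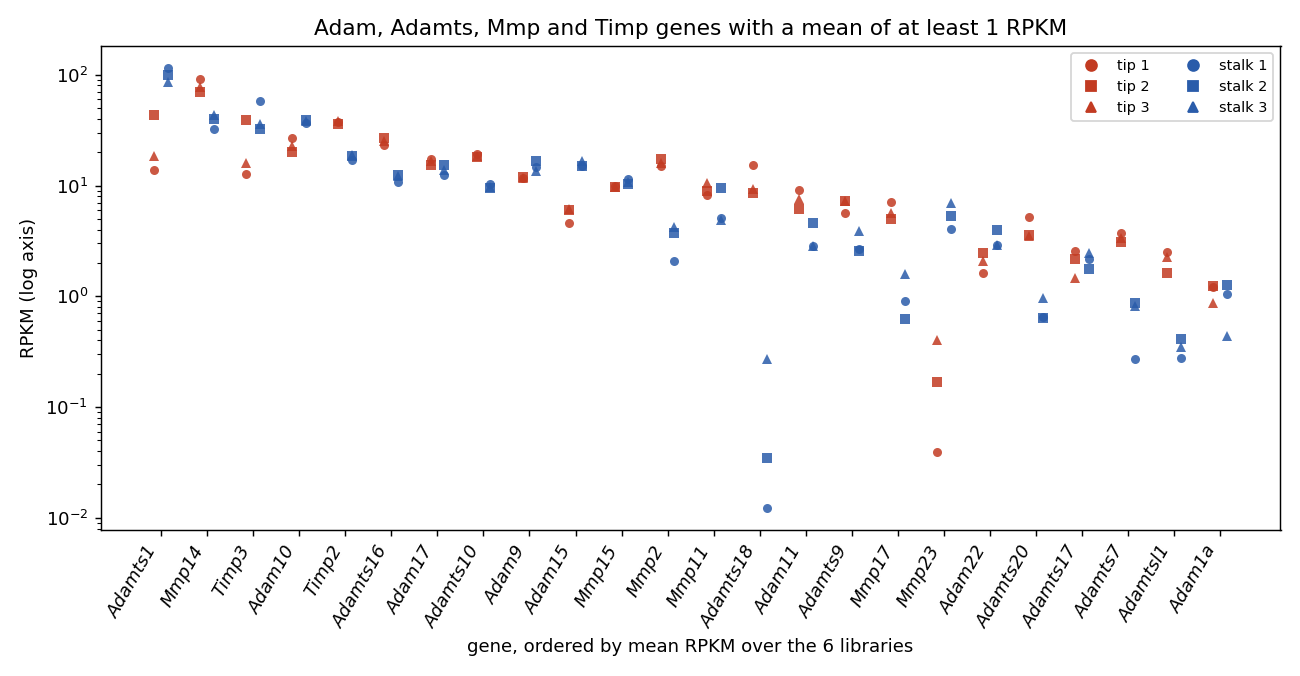
RPKM (log axis) of the 24 tested genes in each of the 6 libraries, ordered by mean RPKM, with tip in red, stalk in blue and a marker shape per replicate. Adamts18 is the gene whose groups lie farthest apart, from 8.48 to 15.3 RPKM in the tip libraries and from 0.0124 to 0.274 RPKM in the stalk libraries.

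The sequences upstream of 3 members are shown because these genes mark the range of the result: Adamts18 had the largest difference of the members, Mmp14 the highest mean in tip and Adamts1 the highest mean in stalk. Each is the 250 bases before the RefSeq start (GRCm38.p6), 5′ to 3′ on the gene's strand, with matches to the GC box GGGCGG or the TATA box TATAAA on either strand in capitals. They are chr8:113848840-113849089 on the minus strand for Adamts18, chr14:54431348-54431597 on the plus strand for Mmp14 and chr16:85803114-85803363 on the minus strand for Adamts1.
Adamts18: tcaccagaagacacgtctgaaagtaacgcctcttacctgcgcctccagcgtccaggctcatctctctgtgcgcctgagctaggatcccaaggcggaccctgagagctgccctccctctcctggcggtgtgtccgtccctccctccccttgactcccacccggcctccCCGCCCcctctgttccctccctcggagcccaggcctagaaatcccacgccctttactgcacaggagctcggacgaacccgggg
Mmp14: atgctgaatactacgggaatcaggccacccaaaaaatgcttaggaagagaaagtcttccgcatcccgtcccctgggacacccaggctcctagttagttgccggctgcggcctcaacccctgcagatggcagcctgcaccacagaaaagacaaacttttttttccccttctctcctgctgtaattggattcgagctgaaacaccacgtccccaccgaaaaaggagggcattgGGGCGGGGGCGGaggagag
Adamts1: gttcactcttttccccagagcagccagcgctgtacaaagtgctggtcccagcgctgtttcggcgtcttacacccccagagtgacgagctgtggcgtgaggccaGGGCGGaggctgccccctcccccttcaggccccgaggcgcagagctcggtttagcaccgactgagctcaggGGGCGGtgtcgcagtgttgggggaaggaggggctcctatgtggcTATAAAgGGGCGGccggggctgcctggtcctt
The Adamts1 window holds the TATA letters, 32 bases before the start, and 3 GC boxes. The windows of Adamts18 (1 GC box) and Mmp14 (2 GC boxes) hold no TATA match. Windows were found for 16 of the 24 tested members, 17 windows in all, and 12 of these (70.6%) held a GC box, against 32.7% of all 32851 windows. Their median GC content was 65.2%, against 52.4% for all windows. All windows were taken whether or not their gene was tested here. The member windows thus also differ from them by the minimum for testing, and windows of tested genes alone were not compared. The TATA letters were in 1 member window (12.4% of all windows). The ETS letters CCGGAAG were in 2, those of Adam15 and Adam17 (6.91% of all windows), and the AP-1 letters TGANTCA in 0 (6.75% of all windows). A match describes letters in a window and no binding.

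Mmp14, Mmp2 and Timp2, whose products form the activation complex named above, were all higher in tip. Mmp14 (mm10, chromosome 14, 54431612 to 54445364, plus strand) read 92.3, 69.4 and 77.5 RPKM in the tip libraries and 32.1, 39.8 and 43.2 RPKM in the stalk libraries. Every tip library lay above every stalk library, with a 2.08-fold ratio of means (1.04, SE 0.14, limma adjusted p = 0.000564). Mmp2 (chromosome 8, 92827291 to 92853420, plus strand), a secreted gelatinase that cuts type IV collagen, read 14.8, 17.5 and 16.0 RPKM in the tip libraries and 2.07, 3.72 and 4.19 RPKM in the stalk libraries. Its groups were also separate, with a 4.84-fold ratio (2.02, SE 0.20, limma adjusted p = 9.69e-05). Timp2 (chromosome 11, 118301069 to 118355740, minus strand) read 37.7, 35.8 and 38.4 RPKM in the tip libraries and 17.0, 18.5 and 18.9 RPKM in the stalk libraries. It varied little within either group and differed 2.06-fold (1.001, SE 0.093, limma adjusted p = 7.03e-05). The GENCODE span of Timp2 overlaps Cep295nl on the same strand.

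Since RPKM is scaled to length, the levels of these genes could be set against each other within a library. The ratio of Mmp14 to Timp2 RPKM was 2.45, 1.94 and 2.02 in tip and 1.88, 2.15 and 2.28 in stalk, and the groups overlapped. The ratio of Mmp14 to Mmp2 RPKM was 6.22, 3.97 and 4.85 in tip and 15.5, 10.7 and 10.3 in stalk, so Mmp2 was lower relative to Mmp14 in all 3 stalk libraries. Summed over the family, Mmp RPKM was 112 to 134 in tip and 56.9 to 73.0 in stalk. Mmp14 made up 62.0 to 69.0% of that sum in tip and 55.8 to 59.2% in stalk.

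Among the other membrane-anchored Mmp genes, Mmp17, whose product is held by a lipid anchor, was higher in tip. It read 7.06, 4.96 and 5.64 RPKM in the tip libraries and 0.909, 0.620 and 1.60 RPKM in the stalk libraries (1.77, SE 0.21, limma adjusted p = 0.000252). Mmp15, which spans the membrane as Mmp14 does, read 9.95, 9.71 and 9.68 RPKM in the tip libraries and 11.4, 10.4 and 10.7 RPKM in the stalk libraries. All stalk libraries lay slightly above the tip ones, but the difference did not pass (-0.13, 95% interval -0.37 to 0.10, limma adjusted p = 0.318). Mmp11, a secreted protease activated inside the cell by furin, read 8.13, 8.97 and 10.5 RPKM in the tip libraries and 5.06, 9.41 and 4.92 RPKM in the stalk libraries. Stalk replicate 2 overlapped the tip libraries, and the difference did not pass (0.50, 95% interval -0.019 to 1.01, limma adjusted p = 0.101). It passed without stalk replicate 2 (0.76, limma adjusted p = 0.00574).

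Mmp23 ran the other way and was among the members with the largest differences toward stalk. This gene (chromosome 4, 155650655 to 155653384, minus strand) encodes a membrane-tethered protease without the usual hemopexin domain. It read 0.0394, 0.167 and 0.406 RPKM in the tip libraries and 4.02, 5.28 and 6.98 RPKM in the stalk libraries (-2.40, SE 0.21, limma adjusted p = 5.92e-05), and the groups were far apart. The ratio of its means was 26.6-fold, and 52.7-fold without tip replicate 3. Tip replicate 1 lay under the 0.0606 RPKM that 3 reads in a transcript of 1 kb were worth in that library. The size of the ratio thus rests on low tip values. Mmp9, the other gelatinase, did not exceed 0.102 RPKM in any library. Mmp13 read 0.348, 0 and 0.0837 RPKM in the stalk libraries and was listed at 0 in all tip libraries, so the groups overlapped. Mmp3, Mmp7, Mmp8 and Mmp12 were among the symbols without values.

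**Figure D2:**
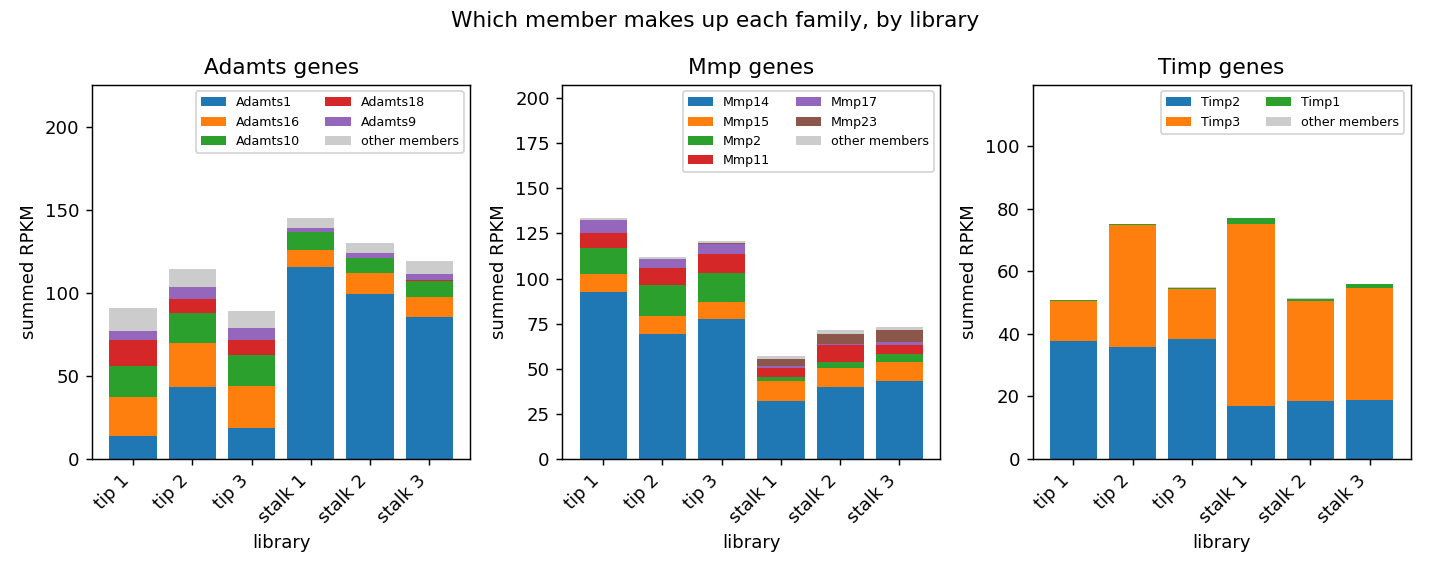
Summed RPKM of the Adamts, Mmp and Timp genes in each library, as stacked bars from 0 with the leading members in colour and the other members in grey. Adamts1 makes up 71.8 to 79.3% of the Adamts total in stalk and 15.1 to 37.6% in tip.

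The Timp total overlapped between groups, at 50.9 to 75.1 RPKM in tip and 51.5 to 77.2 in stalk, but its makeup differed. Timp2 made up 74.1, 47.6 and 69.8% of it in the tip libraries and 22.04, 35.9 and 33.8% in the stalk libraries. Timp3 (chromosome 10, 86300372 to 86349506, plus strand), which binds to the matrix and also inhibits several Adam and Adamts proteases, read 12.8, 39.1 and 16.0 RPKM in the tip libraries and 58.3, 32.1 and 35.6 RPKM in the stalk libraries. Tip replicate 2 lay above stalk replicates 2 and 3, and stalk replicate 1 was the highest of all. The difference did not pass (-0.98, 95% interval -1.86 to -0.10, limma adjusted p = 0.0646). It passed without tip replicate 2 (-1.44, limma adjusted p = 0.00235) and without tip replicate 2 and stalk replicate 1 together (-1.19, limma adjusted p = 0.000464), the latter chosen after seeing the data. Timp3 lies inside Syn3 on the opposite strand, and whether strand was used in counting is not given in the sources used here. Timp1 read 0.338, 0.184 and 0.402 RPKM in the tip libraries and 1.78, 0.632 and 1.39 RPKM in the stalk libraries, and Timp4 did not exceed 0.235 RPKM in any library. Both lay under the minimum for testing.

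The Adamts genes held the member with the largest difference and the one with the highest stalk level. Adamts18 (chromosome 8, 113697126 to 113848738, minus strand), a secreted protease, read 15.3, 8.48 and 9.22 RPKM in the tip libraries and 0.0124, 0.0347 and 0.274 RPKM in the stalk libraries. On its longest annotated transcript (5642 bases) these values correspond to about 4257, 2500 and 2634 reads in tip and 3, 10 and 76 reads in stalk. The groups were far apart (3.40, SE 0.23, limma adjusted p = 1.72e-05). The ratio of means was 103-fold and moved to 467-fold without stalk replicate 3, the stalk library with the most Adamts18. The tip gene Wnt11 had the same order in stalk, at 1.92, 8.67 and 24.5 RPKM, and the part of remaining tip cells in the stalk value was not tested.

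Adamts16 (chromosome 13, 70727802 to 70841811, minus strand), the closest homolog of Adamts18, read 23.3, 26.7 and 25.4 RPKM in the tip libraries and 10.8, 12.4 and 12.1 RPKM in the stalk libraries. Its groups were separate at a 2.14-fold ratio (1.03, SE 0.11, limma adjusted p = 0.000119), and the stalk libraries kept a clear level of it. Adamts10, whose product binds fibrillin microfibrils, read 19.1, 18.0 and 18.3 RPKM in the tip libraries and 10.3, 9.40 and 9.63 RPKM in the stalk libraries (0.85, SE 0.10, limma adjusted p = 0.000233). This value was spread over 12 rows, and in the leading row alone the difference no longer passed (0.60, limma adjusted p = 0.0681).

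The homologs Adamts9 and Adamts20, which cut the proteoglycan versican, were both higher in tip, with separate groups. Adamts9 read 5.69, 7.21 and 7.23 RPKM in the tip libraries and 2.69, 2.56 and 3.86 RPKM in the stalk libraries (0.94, SE 0.17, limma adjusted p = 0.00220). Adamts20 read 5.25, 3.58 and 3.48 RPKM in the tip libraries and 0.649, 0.642 and 0.961 RPKM in the stalk libraries (1.53, SE 0.18, limma adjusted p = 0.000271). Adamts7, which cuts cartilage oligomeric matrix protein, was also higher in tip and read 3.74, 3.12 and 3.37 RPKM in the tip libraries and 0.273, 0.876 and 0.809 RPKM in the stalk libraries (1.44, SE 0.19, limma adjusted p = 0.000474). So was Adamtsl1, which has binding modules of the family but no protease domain, and read 2.53, 1.64 and 2.25 RPKM in the tip libraries and 0.279, 0.408 and 0.348 RPKM in the stalk libraries (1.21, SE 0.18, limma adjusted p = 0.000729). Adamts7 and Adamtsl1 were each spread over 9 rows. Their leading rows averaged 0.799 and 0.503 RPKM, so the leading row alone was tested for neither. Adamts17 did not pass, at 2.07 ± 0.565 RPKM in tip against 2.12 ± 0.350 RPKM in stalk (-0.035, 95% interval -0.47 to 0.40, limma adjusted p = 0.891).

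Adamts1 (chromosome 16, 85793827 to 85803113, minus strand) was the 1 tested Adamts gene called toward stalk. This protease cuts versican and aggrecan, and its gene is known for rapid induction by inflammatory signals. It read 13.7, 43.1 and 18.5 RPKM in the tip libraries and 115, 99.3 and 85.5 RPKM in the stalk libraries. All stalk libraries lay above the tip ones, but tip replicate 2 was well above the other tip libraries. The ratio of means was 3.98-fold (-2.11, SE 0.35, limma adjusted p = 0.00151), and 6.21-fold without tip replicate 2 (-2.57, limma adjusted p = 4.04e-05). Without Adamts1, the other Adamts genes summed to 70.5 to 77.3 RPKM in tip and 30.0 to 33.6 in stalk. With it the order turned, at 89.0 to 115 RPKM in tip and 119 to 145 in stalk.

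Some markers of other cells differed between the groups. The shares of all genes to set beside their counts are 26.1% higher in tip and 22.5% higher in stalk. Of 8 endothelial markers 7 were tested and 7 were higher in stalk, with sums of 6.01 to 8.84 RPKM for tip and 41.9 to 73.6 RPKM for stalk. Of 16 genes of the dissociation response, 9 were higher in stalk and 1 in tip, with sums of 3946 to 5382 RPKM for tip and 5481 to 8487 RPKM for stalk. Their part in the stalk values of Adamts1, Adam15, Adam10, Adam9 and Mmp23 was not tested. Of 5 nephron progenitor markers 2 were tested and 2 were higher in tip, with sums of 3.96 to 6.40 RPKM and 1.49 to 2.53 RPKM, and their part in the tip values was not tested. Stromal markers summed to 4.42 to 9.69 RPKM in tip and 5.02 to 9.28 RPKM in stalk, with 4 of 8 tested, 0 called by limma and 0 at an unadjusted p under 0.05. The part of stromal cells in the values of Mmp14 and Mmp2 was not tested. Of 6 immune markers 3 were tested: Laptm5 was higher in stalk, at 0.101 ± 0.131 RPKM in tip against 5.03 ± 2.29 RPKM in stalk (-2.39, SE 0.27, limma adjusted p = 0.000206), Cd68 was higher in tip, at 9.46 ± 1.06 RPKM in tip against 5.50 ± 0.680 RPKM in stalk (0.69, SE 0.14, limma adjusted p = 0.00375), and Ptprc did not pass. The part of immune cells in the members' values was not tested. Immune markers summed to 12.7 to 15.1 RPKM and 12.2 to 19.5 RPKM, and erythroid markers to 12.4 to 72.4 RPKM and 8.86 to 83.8 RPKM, in tip and stalk respectively. No listed marker with values was at 0 in all libraries. In bulk samples, fewer cells of a type and less RNA per cell cannot be told apart.

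**Figure D3:**
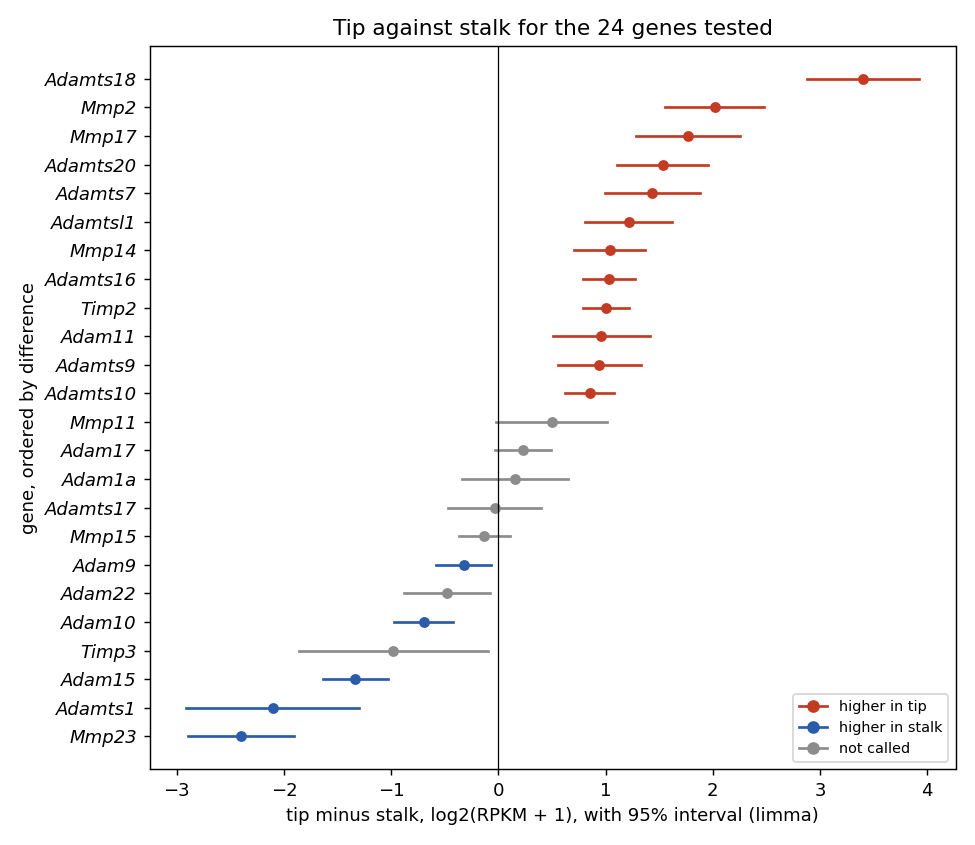
Difference between tip and stalk on the log2(RPKM + 1) scale for the 24 tested genes, with 95% intervals from limma (points and lines), in red where higher in tip, blue where higher in stalk and grey where not called. The 12 genes called toward tip run from 0.85 for Adamts10 to 3.40 for Adamts18, and the 5 called toward stalk from -0.32 for Adam9 to -2.40 for Mmp23.

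Of 7 tested Adam genes, 3 were higher in stalk (22.5% of all genes) and 1 in tip (26.1% of all genes). The 3 were catalytic sheddases, and the call of Adam9 among them was narrow. Adam10 (chromosome 9, 70678997 to 70780229, plus strand), which cleaves Notch receptors and sheds cadherins and EGF family ligands, read 27.0, 19.96 and 22.8 RPKM in the tip libraries and 36.8, 39.0 and 38.1 RPKM in the stalk libraries. The groups were separate at a 1.63-fold ratio (-0.69, SE 0.12, limma adjusted p = 0.00180). Adam17, which sheds TNF-alpha and several ligands of the EGF receptor, read 17.2, 15.4 and 16.6 RPKM in the tip libraries and 12.5, 15.3 and 13.9 RPKM in the stalk libraries. Its difference did not pass (0.23, 95% interval -0.029 to 0.49, limma adjusted p = 0.127), with stalk replicate 2 nearly level with tip replicate 2. The ratio of Adam10 to Adam17 RPKM was 1.57, 1.30 and 1.37 in tip and 2.94, 2.56 and 2.74 in stalk, without overlap. The GENCODE span of Adam17 overlaps Iah1 on the opposite strand.

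Adam15, whose extracellular part binds integrins, had the largest difference among the Adam genes. It (chromosome 3, 89338542 to 89349996, minus strand) read 4.59, 6.01 and 6.16 RPKM in the tip libraries and 14.96, 15.1 and 16.51 RPKM in the stalk libraries, a 2.78-fold ratio (-1.33, SE 0.13, limma adjusted p = 9.85e-05). Adam9 read 11.6, 11.9 and 11.7 RPKM in the tip libraries and 14.6, 16.8 and 13.6 RPKM in the stalk libraries. The difference passed narrowly (-0.32, SE 0.11, limma adjusted p = 0.0421). It was lost in the leading row alone (limma adjusted p = 0.390), without any 1 tip library (adjusted p 0.0769 to 0.113), without stalk replicate 1 (0.0635) and without stalk replicate 2 (0.127).

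Adam11 and Adam22 belong to the members without a working zinc site, which act as adhesion or receptor proteins and are best known from nerve cells. Adam11 was higher in tip and read 9.07, 6.10 and 7.498 RPKM in the tip libraries and 2.87, 4.57 and 2.83 RPKM in the stalk libraries (0.96, SE 0.20, limma adjusted p = 0.00437). Adam22 did not pass, at 2.06 ± 0.417 RPKM in tip against 3.26 ± 0.632 RPKM in stalk (-0.48, 95% interval -0.88 to -0.076, limma adjusted p = 0.0514). It passed under median ratio scaling (-0.52, limma adjusted p = 0.0361), with no variance trend (limma adjusted p = 0.0359) and when tip replicate 2 was left out (-0.57, limma adjusted p = 0.0467). Its reads were divided over 17 rows, and the leading row held 9.75% of its RPKM in tip replicate 1 and 78.3% in tip replicate 3. Adam1a did not pass (0.16, 95% interval -0.34 to 0.65, limma adjusted p = 0.573) and overlaps other genes on both strands.

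The other 38 members with values averaged under 1 RPKM, and 26 members stayed below 0.5 RPKM in every library. Mmp16, just under the limit, was at 1.08 ± 0.226 RPKM in tip against 0.837 ± 0.579 RPKM in stalk. Adamts15, a versican-cleaving protease, was at 0.352 ± 0.131 RPKM in tip against 1.41 ± 0.357 RPKM in stalk, and Adam33 at 0.326 ± 0.0345 RPKM in tip against 1.12 ± 0.250 RPKM in stalk, both without overlap between groups. The aggrecanase genes Adamts4 and Adamts5 were at 0.200 ± 0.0464 RPKM in tip against 0.483 ± 0.0661 RPKM in stalk and at 0.435 ± 0.0623 RPKM in tip against 0.430 ± 0.145 RPKM in stalk, the former without overlap. The procollagen-processing genes Adamts2, Adamts3 and Adamts14 did not exceed 0.480 RPKM in any library. With no minimum, 13 of 62 members were higher in tip (15.2% of all genes) and 10 in stalk (13.3% of all genes). The calls this added were Adam23 toward tip and Adam33, Adamts15, Adamts4, Mmp28 and Timp1 toward stalk. Adamts15 differed by -0.82 (limma adjusted p = 0.0107) and Adamts4 by -0.31 (limma adjusted p = 0.0109). The 22 symbols without values were 14 Adam genes, several of them known from testis, and 8 Mmp genes.

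Genes that act with these proteases were read from lists, with limma calls over all genes. Of 11 EGF family ligands, several of them shed by Adam10 or Adam17, 5 were tested. Of these, 2 were higher in tip and 2 in stalk (all genes: 26.1% and 22.5%). Hbegf read 21.4, 97.1 and 32.5 RPKM in the tip libraries and 301, 199 and 194 RPKM in the stalk libraries (-2.44, SE 0.47, limma adjusted p = 0.00322). Its ratio of means was 4.60-fold, and 8.60-fold without tip replicate 2. Btc was also higher in stalk, at 7.67 ± 2.02 RPKM in tip against 16.3 ± 0.803 RPKM in stalk (-1.03, SE 0.17, limma adjusted p = 0.00157). The neuregulin gene Nrg3 was higher in tip, at 4.03 ± 0.256 RPKM in tip against 0.562 ± 0.0481 RPKM in stalk (1.69, SE 0.14, limma adjusted p = 4.94e-05).

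Of 12 tested partners of Adam10 and Adam17 and proprotein convertases, 2 were higher in tip and 3 in stalk (all genes: 26.1% and 22.5%). Furin, the convertase that removes the prodomain of many of these proteases, was at 21.8 ± 1.37 RPKM in tip against 40.7 ± 7.65 RPKM in stalk (-0.86, SE 0.145, limma adjusted p = 0.00162). Pcsk6, another convertase gene, was higher in tip, at 2.99 ± 0.812 RPKM in tip against 0.539 ± 0.284 RPKM in stalk (1.37, SE 0.21, limma adjusted p = 0.00106). The gene of the Adam10-binding tetraspanin Tspan5 was higher in tip, at 2.92 ± 0.132 RPKM in tip against 1.07 ± 0.271 RPKM in stalk (0.93, SE 0.16, limma adjusted p = 0.00171), but not in its leading row alone (0.69, limma adjusted p = 0.0954). Tspan15, another such tetraspanin gene, did not pass, at 40.4 ± 5.71 RPKM in tip against 51.8 ± 7.05 RPKM in stalk (-0.35, 95% interval -0.67 to -0.033, limma adjusted p = 0.0664). Leaving out stalk replicate 1 brought Tspan15 past it (-0.46, limma adjusted p = 0.0266).

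Plasmin, which can activate several Mmp proenzymes, is made from plasminogen by urokinase. Of 6 tested genes of that system, 1 was higher in tip and 2 in stalk (all genes: 26.1% and 22.5%). The protease inhibitor gene Serpine2 was at 25.0 ± 2.20 RPKM in tip against 3.87 ± 0.393 RPKM in stalk (2.41, SE 0.12, limma adjusted p = 6.33e-06). The urokinase receptor gene Plaur read 4.92, 27.3 and 5.12 RPKM in the tip libraries and 114, 26.2 and 34.2 RPKM in the stalk libraries (-2.25, SE 0.69, limma adjusted p = 0.0265), with tip replicate 2 above stalk replicate 2. Its ratio of means was 4.66-fold, 11.6-fold without tip replicate 2 and 2.43-fold without stalk replicate 1. The call was lost with no minimum (limma adjusted p = 0.105) and without tip replicate 1 (0.0904), tip replicate 3 (0.0879) or stalk replicate 1 (0.0626). Plgrkt, a plasminogen receptor gene, was higher in stalk, at 3.84 ± 0.148 RPKM in tip against 9.76 ± 1.44 RPKM in stalk (-1.14, SE 0.14, limma adjusted p = 0.000253). The urokinase gene Plau read 6.29, 55.2 and 14.7 RPKM in the tip libraries and 37.2, 11.7 and 11.5 RPKM in the stalk libraries and did not pass (0.029, 95% interval -1.60 to 1.66, limma adjusted p = 0.976).

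Of 5 tested regulators of matrix metalloproteinases outside the Timp family, 0 were higher in tip and 1 in stalk (all genes: 26.1% and 22.5%). The 1 called was Spock2 (-0.52, SE 0.14, limma adjusted p = 0.0173). That call was lost without tip replicate 1 (limma adjusted p = 0.0662), tip replicate 2 (0.0517) or stalk replicate 2 (0.0536). Reck, which encodes a membrane-anchored inhibitor, did not pass, at 2.28 ± 0.147 RPKM in tip against 1.91 ± 0.273 RPKM in stalk (0.17, 95% interval -0.17 to 0.52, limma adjusted p = 0.363). Nor did Bsg, which encodes an inducer of Mmp genes, at 319.7 ± 18.8 RPKM in tip against 298 ± 26.2 RPKM in stalk (0.10, 95% interval -0.13 to 0.33, limma adjusted p = 0.425).

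Of 9 tested matrix substrates of Adamts proteases, 3 were higher in tip and 3 in stalk (all genes: 26.1% and 22.5%). The fibrillin gene Fbn2 was at 25.0 ± 2.91 RPKM in tip against 3.74 ± 0.614 RPKM in stalk (2.46, SE 0.14, limma adjusted p = 9.84e-06), and the fibronectin gene Fn1 at 36.5 ± 5.84 RPKM in tip against 6.15 ± 1.56 RPKM in stalk (2.40, SE 0.18, limma adjusted p = 2.83e-05). The nidogen gene Nid1 was higher in stalk, at 0.742 ± 0.265 RPKM in tip against 2.49 ± 0.0269 RPKM in stalk (-1.02, SE 0.17, limma adjusted p = 0.00157), as was the versican gene Vcan, at 0.543 ± 0.0473 RPKM in tip against 1.66 ± 0.323 RPKM in stalk (-0.78, SE 0.17, limma adjusted p = 0.00565). The perlecan gene Hspg2 did not pass, at 59.2 ± 11.4 RPKM in tip against 55.2 ± 4.52 RPKM in stalk (0.084, 95% interval -0.24 to 0.41, limma adjusted p = 0.654). Of 9 tested metallopeptidases of other extracellular families, 4 were higher in tip and 4 in stalk (all genes: 26.1% and 22.5%). The procollagen C-proteinase gene Bmp1 was at 33.0 ± 3.60 RPKM in tip against 7.62 ± 1.03 RPKM in stalk (1.98, SE 0.13, limma adjusted p = 1.71e-05), and Pappa2 at 1.95 ± 0.743 RPKM in tip against 0.330 ± 0.115 RPKM in stalk (1.12, SE 0.23, limma adjusted p = 0.00404). Pappa, which cuts IGF binding proteins, was at 0.0857 ± 0.0396 RPKM in tip against 3.20 ± 0.377 RPKM in stalk (-1.95, SE 0.16, limma adjusted p = 4.02e-05). The median log2 differences of the 6 lists lay between -0.35 and 0.28.

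On the second principal component of all genes (9.21% of the variance) tip replicate 2 and stalk replicate 1 lay at -20.5 and -25.0, and the remaining libraries between 7.72 and 18.5. In both, Adamts1, Timp3, Plau, Plaur, Thbs1 and Hbegf had the highest value of their group, and Mmp14 and Timp2 the lowest. Thbs1, which encodes a matrix protein that binds Mmp2, read 16.6, 56.7 and 22.9 RPKM in the tip libraries and 72.0, 39.1 and 38.0 RPKM in the stalk libraries and did not pass (-0.74, 95% interval -1.71 to 0.22, limma adjusted p = 0.179). It passed without tip replicate 2 (-1.24, limma adjusted p = 0.00881). Without both of these libraries 12 members were higher in tip and 6 in stalk, where Timp3 and Adam22 were added and Adam9 was lost. Of all genes, 3100 were then higher in tip and 2917 in stalk.

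**Figure D4:**
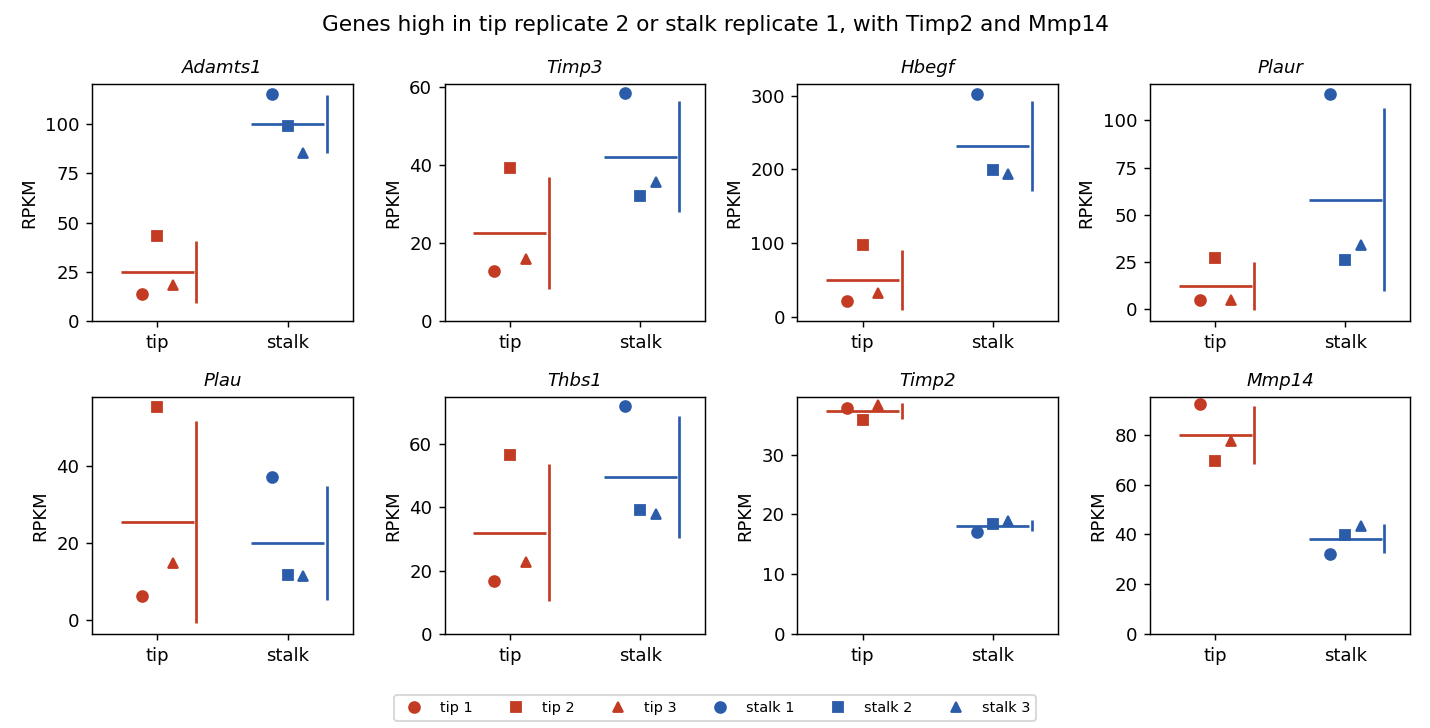
RPKM of 8 genes in each library, with a marker shape per replicate, horizontal lines at group means and vertical lines of 1 SD to each side (n = 3). The genes were chosen after their values were seen. For Adamts1, Timp3, Hbegf, Plaur, Plau and Thbs1, tip replicate 2 and stalk replicate 1 are the highest libraries of their group, and for Timp2 and Mmp14 the lowest.

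Depth and labels were checked over the whole table. In genes with 1 row and 1 annotated transcript, 72.6% to 77.4% of low values were whole multiples, within 0.1, of what 1 read is worth, which implied 43000000 to 52200000 reads per library. By that measure 3 reads in a transcript of 1 kb were worth 0.0574 to 0.0698 RPKM. Wnt11 was at 693 ± 255 RPKM in tip against 11.7 ± 11.6 RPKM in stalk (6.20, SE 0.68, limma adjusted p = 0.000162), a 59.2-fold ratio that was 131-fold without stalk replicate 3. Hoxb7 was at 75.8 ± 21.99 RPKM in tip against 53.7 ± 14.0 RPKM in stalk (0.48, 95% interval -0.10 to 1.06, limma adjusted p = 0.1496). The Hoxb7 difference passed without tip replicate 2 (0.73, limma adjusted p = 0.0262). All 5 tip markers were called toward tip and all 3 stalk markers toward stalk. Of 5 ureteric epithelium markers, Hoxb7 among them, 1 was called toward tip (Epcam) and 2 toward stalk (Cdh1 and Krt8). Beside them, 26.1% of all genes were higher in tip and 22.5% in stalk. The 5 summed to 771 to 893 RPKM in tip and 1194 to 1521 RPKM in stalk.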

How the data were processed

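mRNA sequencing libraries, 3 of tip and 3 of stalk cells, were grouped by their labels. RNA was extracted with an RNeasy micro kit and libraries were made with a Kapa stranded kit, per the labels' protocols. Tools listed in the submitters' processing notes are TopHat2, Partek and bcl2fastq 2.17, with the build mm10. The sources used here name no annotation and no counting settings. The authors deposited RPKM values in 1 table of 93615 rows, of which 24545 held question marks and were dropped. RPKM was summed over the rows of each symbol. RPKM is not a count, so no count test was run.

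Genes averaging 1 RPKM or more were tested with limma 3.58.1 (R 4.3.3) on log2(RPKM + 1), with group as the only term, a variance trend and a two-sided Benjamini-Hochberg threshold of 0.05. The fit was tested on simulated data. Coordinates came from GENCODE M21. Depth was read from 4623 genes with 1 row and 1 transcript, and covers counting error only.

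Values in every library were given for called members with a log2 difference of at least 1 or a mean of at least 5 RPKM in the higher group, and for the 6 most abundant members. From each related list up to 3 called genes with the largest change were named. Marker lists were given as counts and sums, not by their 2 most abundant genes as first set. Wnt11 and Hoxb7 were named as a check of the labels. The tested immune markers and the called ureteric epithelium markers were also named, outside the rule first set. Plau, Thbs1, Reck, Vcan, Tspan15, Bsg, Hspg2 and the motifs were chosen after values were seen. Members and lists were chosen with earlier results of these data known. Alternatives changed the pseudocount, minimum, handling of rows, scaling, variance trend, block and libraries used.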

Additional observations from a re-analysis of the deposited data

How the results depend on the processing

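Of the 17 called members, 15 kept their direction and stayed past the threshold under every alternative that tested them, of 14 run. The exceptions were Adam9 and Adamts10. Members higher in tip numbered 12, and 7 with a minimum mean of 5 RPKM, where 15 members were tested. For all genes these numbers were 3274 and 2532. Members higher in stalk numbered 5, and 10 with no minimum, where 62 members were tested. For all genes they were 2815 and 2851. With 1 library left out, 12 to 13 members were higher in tip and 4 to 6 in stalk. Of the 12532 genes tested, 2544 to 3061 were then higher in tip and 2230 to 2908 in stalk. Same-numbered libraries were not paired by any label, and their deviations from the group means correlated at -0.30, -0.34 and 0.09. No library correlated best with its own number: the highest values were 0.56 for tip replicate 2 with stalk replicate 1, 0.40 for tip replicate 3 with stalk replicate 2 and 0.33 for tip replicate 1 with stalk replicate 3, an order that no label gives and that was not fitted. With the replicate block 12 members were higher in tip and 4 in stalk, against 2716 and 2380 of all genes, compared with 3274 and 2815 without it. It ended the calls of Adam9 and Spock2 and no other call of a named gene. Under median ratio scaling 3013 of all genes were higher in tip and 3143 in stalk, 12 and 6 of the members, and the median of all genes moved by -0.048. With a pseudocount of 0.1, Adamts18 moved to 5.91 and Mmp23 to -4.34.

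The direction turned only for genes that were not called, among members Adamts17 and Adam1a. Adamts17 turned to 0.011 in its leading row and ranged from -0.154 to 0.116 with 1 library left out. Adam1a ranged from -0.038 to 0.294 with 1 library left out. Plau turned to -0.022 with median ratio scaling, ranged from -0.77 to 0.71 with 1 library left out, and was -0.24 without tip replicate 2 and stalk replicate 1, an alternative chosen after seeing the data. Hspg2 ranged from -0.063 to 0.20 with 1 library left out and was -0.047 without both libraries.

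With a minimum mean of 5 RPKM, 1 EGF family ligand and 0 partners or convertases were higher in tip. Under it 0 matrix substrates were higher in stalk, and 2 other metallopeptidases were higher in tip and 1 in stalk. The calls missing there were of genes averaging under 5 RPKM, which were then not tested. With no minimum, 2 genes of the plasminogen system were higher in tip and 1 in stalk, and 2 other metallopeptidases were higher in tip. In the leading row 1 other Mmp regulator was higher in tip, and with the replicate block 0 were higher in stalk. Without tip replicate 2 and stalk replicate 1, 5 partners or convertases were higher in stalk and 2 other metallopeptidases were higher in tip. With 1 library left out, genes of the plasminogen system higher in stalk ranged from 1 to 2, other Mmp regulators from 0 to 1 in each direction, and other metallopeptidases higher in tip from 2 to 4. Values under the 0.0574 to 0.0698 RPKM that 3 reads in 1 kb are worth rest on few reads.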
